A study of Rattus norvegicus with 4 samples.

Results

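The liver X receptors (LXRs), their target genes and the enzymes that make or clear their oxysterol ligands were examined in rat oligodendrocyte precursor cells (OPCs) in which Gpr17 had been silenced. Members were the array probes whose RefSeq accession belongs to 1 of 10 named genes: the receptors Nr1h3 and Nr1h2, the targets Srebf1, Abca1, Abcg1, Apoe and Mylip, and the enzymes Ch25h, Cyp27a1 and Cyp7b1. These 10 genes, out of 16568 with a matched probe, were represented by 11 probes, since Srebf1 had 2. Of those probes 10, covering 9 genes, gave enough signal to be tested, and Nr1h3 did not.

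OPCs were isolated from cerebral cortices of Sprague–Dawley rats at postnatal day 2, which the study's methods describe as pooled, and were expanded with bFGF and PDGF for 3 days. They then received 50 nM of siRNA with a lipid reagent, either a pool directed at Gpr17 (siGPR17) or a negative control (siNEG). RNA was taken 48 h later, after 2 days in maturation. Each group held 2 samples, submitted as independent, and each sample was hybridised in 1 colour to an Agilent rat expression array, so 4 arrays were compared. Gpr17 encodes a G protein-coupled receptor of differentiating OPCs, and the comparison asked which transcripts differ when it is silenced.

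LXRs are nuclear receptors that bind oxysterols, oxidised forms of cholesterol, and act as heterodimers with the retinoid X receptors. When sterol accumulates they switch on genes for cholesterol efflux, lipoproteins and fatty acid synthesis. In the brain, where cholesterol is made locally and used in bulk for myelin, this arm opposes the SREBP2 programme that supplies new cholesterol.

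Within the LXR target set, differences between silenced and control cells went both ways. Srebf1, which encodes the lipogenic transcription factor SREBP1, was 1.65-fold higher in siGPR17 than in siNEG cells, and the cholesterol exporter Abca1 was 1.44-fold higher. The second exporter Abcg1 and the ubiquitin ligase Mylip were lower, at 0.796-fold and 0.725-fold of siNEG. The remaining target, Apoe, was at 0.94-fold. Of all tested probes, 3.47% differed by as much as Srebf1, 8.62% as Abca1, 21.9% as Abcg1 and 11.7% as Mylip. Among the enzymes, Cyp7b1, an oxysterol hydroxylase that inactivates oxysterols, had the largest difference, at 0.433-fold of siNEG. No member passed the thresholds of a 1.5-fold difference with an adjusted p under 0.07 in limma's moderated test. Over all 28017 probes tested 1 probe passed, or 0.00357%.

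Values below are normalized signals in intensity units: each array was scaled on its 75th percentile and returned to the average level of the 4 arrays. Signals compare arrays for 1 probe, not one probe with another. The targeted gene was read first. Gpr17 gave 1107 and 1113 on the siNEG arrays and 652.3 and 639.4 on the siGPR17 arrays. Its signal in silenced cells was 0.582-fold of control (log2 fold change -0.78, SE 0.085, limma adjusted p = 0.21), so transcript remained detectable in both. All 10 oligodendrocyte lineage markers examined were detected. Of these, 8 were lower and 2 higher in siGPR17 cells, none passed the thresholds, and the median of their log2 fold changes was -0.23, with Mbp, the brightest, at 0.32. Between 26997 and 28244 probes per array were well above background, none was saturated, and array pairs correlated at 0.9919 to 0.9961 over tested probes. The 4 arrays lay on 1 slide with siNEG in one column and siGPR17 in the other, so column and treatment cannot be told apart. With 2 arrays against 2, an exact two-sided permutation test cannot give a p under 0.333.

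Sequence context was available for the start sites of 8 members, in 11 windows of 250 bases before an annotated start (RefSeq, GRCr8). LXR heterodimers classically bind a DR4 element, AGGTCA repeated in the same orientation with a spacer NNNN. The single hexamer AGGTCA, on either strand, stood in 1 member window, that of Cyp27a1, and in 14.1% of 33469 windows of all genes. An exact DR4 was in no member window and in 0.00299% of all windows. With at most 2 mismatches over the 2 hexamers, a DR4 stood in the Cyp27a1 window only, against 2.48% of all windows. A search allowing 3 mismatches was added after the Abca1 window had been read, and it found the Abca1 and Cyp27a1 windows, against 18.6% of all windows. In the Cyp27a1 window it added a stretch with 3 mismatches on the gene's own strand, 115 to 100 bases before the start, not printed here. The DR4-like stretches of the Abca1 window (3 mismatches, on the strand opposite to the gene, 70 to 55 bases before the start) and the Cyp27a1 window (2 mismatches, likewise on the opposite strand, 246 to 231 bases before the start) were, in capitals throughout:
Abca1: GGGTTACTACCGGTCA
Cyp27a1: AGGTCATGTGAGGCCC
These matches are descriptions of letters, not of bound sites.

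The windows of Abca1 and of the internal Srebf1 start are shown because these genes had the 2 highest positive differences among the tested members. They shared a run of 13 bases, marked in capitals, which began 63 bases before the Abca1 start, where it overlaps the DR4-like stretch, and 202 bases before the Srebf1 start. This run was noticed by eye and then counted: among all 33469 windows it stood in 2, or 0.00598%. Those 2 are the Abca1 and Srebf1 windows in which it was noticed, so the share is a description and no test. A search over all 51 pairs of windows from different members, added at the same point, found a longer run of 14 bases between the upstream Srebf1 start and Mylip, a GC-rich stretch present in 25 windows, and a median longest run of 9 bases. Nothing about regulation was read from either run. Both windows lie on the minus strand and are written 5′ to 3′ in the direction of the gene.
Abca1, chr5:72596474-72596723, minus strand: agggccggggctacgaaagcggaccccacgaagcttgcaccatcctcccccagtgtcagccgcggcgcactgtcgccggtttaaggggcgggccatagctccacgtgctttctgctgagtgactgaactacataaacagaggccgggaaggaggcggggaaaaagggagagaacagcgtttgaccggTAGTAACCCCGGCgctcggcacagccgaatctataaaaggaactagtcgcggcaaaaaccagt
Srebf1, chr10:45519011-45519260, minus strand: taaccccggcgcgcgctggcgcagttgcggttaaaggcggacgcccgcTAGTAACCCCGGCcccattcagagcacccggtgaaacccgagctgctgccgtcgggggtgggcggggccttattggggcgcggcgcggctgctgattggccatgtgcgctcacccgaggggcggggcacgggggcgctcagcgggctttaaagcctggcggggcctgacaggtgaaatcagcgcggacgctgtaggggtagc

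The 2 receptors differed in how well they could be measured. Nr1h2 (LXRβ), the broadly expressed form, gave 2914 and 3383 in siNEG cells and 3115 and 3323 in siGPR17 cells. The groups overlapped, and the log2 fold change of 0.04 (95% interval -0.28 to 0.36, limma adjusted p = 0.898) was within the spread between arrays. Its sign turned under normexp background correction and on leaving out either siNEG replicate 1 or siGPR17 replicate 2, so no direction is given for it. Nr1h3 (LXRα), the form known from liver and macrophages, gave 7.775 and 9.67 in siNEG cells, neither well above background. In siGPR17 cells it gave 16.12, again not well above background, and 17.23, the one array where it was. With 1 of 4 arrays carrying a signal well above background, Nr1h3 was not tested, and the size of its difference depended on how dim values were treated. The measured difference was 0.94 on the log2 scale, against 0.31 with dim values set to a common floor and 0.19 under normexp background correction.

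**Figure D1:**
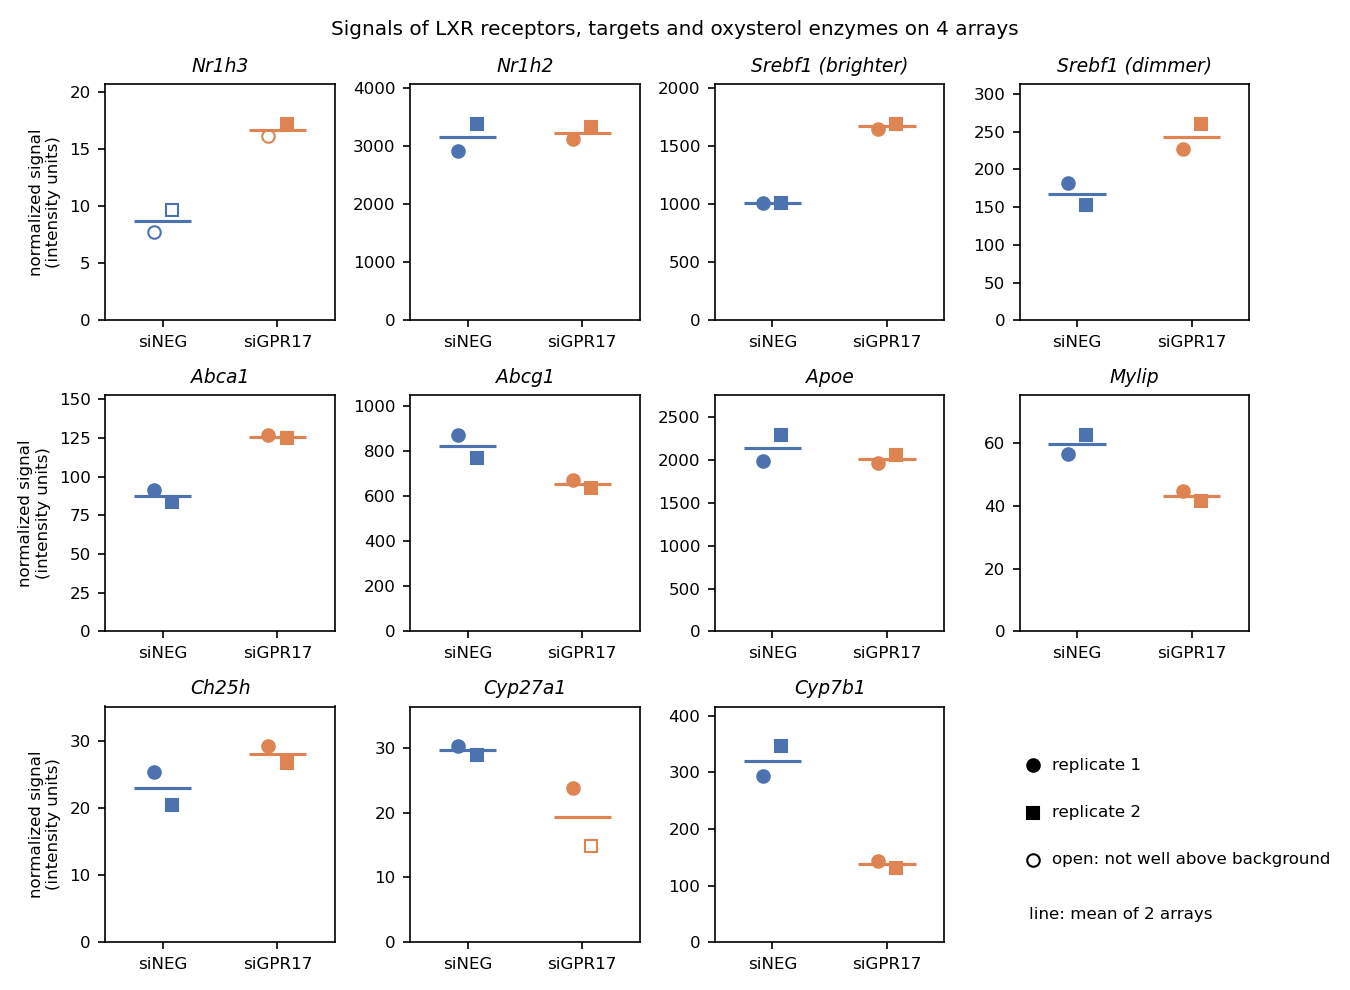
Normalized signal (intensity units, each axis from 0) of the 10 genes, with both Srebf1 probes, on 2 siNEG and 2 siGPR17 arrays. Points are arrays, lines are group means and open points were not well above background. Srebf1, Abca1 and Ch25h were higher on both siGPR17 arrays, Abcg1, Mylip, Cyp27a1 and Cyp7b1 were lower on both, and Nr1h2 and Apoe overlapped. Of all tested probes, 27.3% were higher and 25.2% lower without overlap.

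Among the targets, Srebf1 was measured by 2 probes. The brighter gave 1012 on each siNEG array and 1648 and 1689 on the siGPR17 arrays. The dimmer gave 181.3 and 152.3 in siNEG cells and 226.6 and 260.2 in siGPR17 cells. In both cases each siGPR17 array was above each siNEG array. The log2 fold change was 0.72 for the brighter probe (SE 0.085, 95% interval 0.49 to 0.95, limma adjusted p = 0.21) and 0.55 for the dimmer one (SE 0.14, adjusted p = 0.234). Of all tested probes, 3.47% had a difference as large as that of the brighter Srebf1 probe. Both probes list the same transcript accession, so they do not separate the SREBP1a and SREBP1c forms, of which the latter is the LXR-responsive one.

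Abca1, which loads cholesterol onto lipid-poor apolipoproteins, gave 91.13 and 83.69 in siNEG cells and 127.1 and 125 in siGPR17 cells. The groups did not overlap. Its log2 fold change was 0.53 (SE 0.095, 95% interval 0.27 to 0.79, limma adjusted p = 0.21), and it kept its sign under every alternative run, between 0.38 and 0.66. Abcg1, which passes cholesterol to mature HDL-like particles, gave 871.5 and 770.1 in siNEG cells and 670.8 and 633.6 in siGPR17 cells. Here the silenced arrays were the lower ones, without overlap. The log2 fold change was -0.33 (SE 0.11, 95% interval -0.63 to -0.03, limma adjusted p = 0.277), a size that 21.9% of tested probes reached. Mylip (IDOL), which marks lipoprotein receptors for degradation, gave 56.61 and 62.6 in siNEG cells and 44.76 and 41.56 in siGPR17 cells. It too was lower without overlap, with a log2 fold change of -0.47 (SE 0.10, 95% interval -0.75 to -0.18, limma adjusted p = 0.218). Under normexp background correction the Mylip value was -0.20.

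The opposite positions of the exporters can be read as a ratio within each array, which a scaling factor for each array cannot alter. The log2 ratio of Abca1 to Abcg1, set to average 0 over the siNEG arrays, was -0.03 and 0.03 in siNEG cells and 0.83 and 0.89 in siGPR17 cells. That is a shift of 0.86 on the log2 scale between groups that did not overlap (exact two-sided permutation p = 0.333, the smallest this design allows). The corresponding shift was 1.05 for Srebf1 over Abcg1, 1.19 for Srebf1 over Mylip and 0.55 for Cyp27a1 over Cyp7b1, each with the same exact p. These 4 pairs were chosen after the values of their genes had been seen, so the shifts are descriptions. For the pairs with Abcg1 or Mylip, the numerator was already higher and the denominator lower, each without overlap. Their lack of overlap and their exact p therefore follow from the choice of genes and add no test.

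Apoe, the lipoprotein apolipoprotein that carries cholesterol between glia and neurons, was spotted 10 times on each array. Its signals were 1991 and 2291 in siNEG cells and 1960 and 2058 in siGPR17 cells. The spots of an array varied by 2.91% to 4.17% (coefficient of variation), so the gap between the 2 siNEG arrays was wider than the spread of repeated spots within them. The groups overlapped, and the log2 fold change was -0.09 (SE 0.11, 95% interval -0.40 to 0.22, limma adjusted p = 0.715). Its sign turned to 0.01 without siNEG replicate 2 and to 0.04 under spike-in scaling. Apoe is also a transcript of astrocytes and microglia. Of 7 microglial markers tested, 6 were lower and none passed the thresholds, their summed signal was 2592 to 3834 in siNEG and 2582 to 3054 in siGPR17 cells, and Csf1r was well above background on no array. Of 6 astrocyte markers tested, 4 were lower and none passed, with a summed signal of 109300 to 123500 in siNEG and 113100 to 114500 in siGPR17 cells. Both sums are weighted towards bright probes and say little of the dim ones. The microglial sum rests mostly on Cx3cr1, with 2511 and 1241 in siNEG cells and 1338 and 1884 in siGPR17 cells. Gjb6 was well above background on no array. The part of other cells in the Apoe values was not tested.

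**Figure D2:**
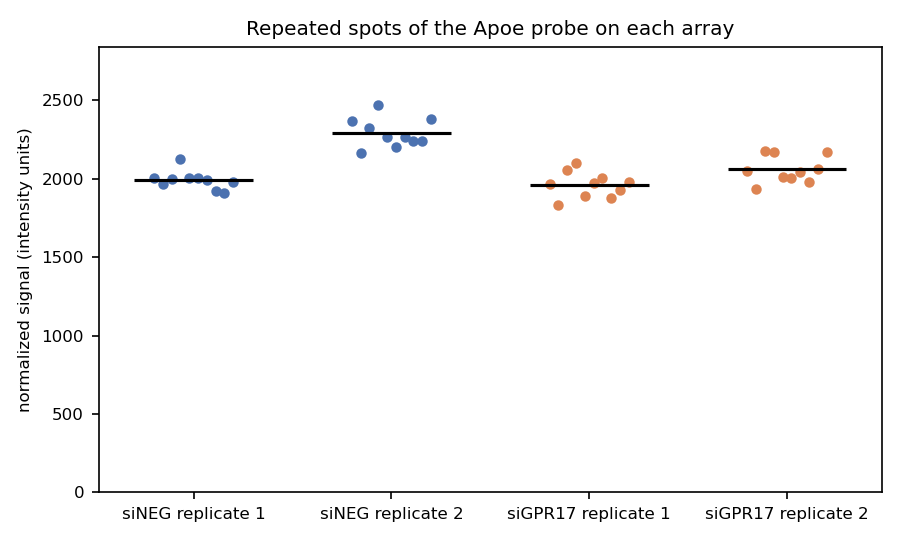
Normalized signal (intensity units, from 0) of the 10 spots of the Apoe probe on each array, points for spots and lines for their mean. Spots of an array lie close together, the siNEG arrays average 1991 and 2292, and the siGPR17 arrays fall between 1834 and 2175.

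Of the 3 enzymes, Cyp7b1 and Cyp27a1 had lower and Ch25h higher signals on both siGPR17 arrays, and none passed the thresholds. Among all tested probes, 25.2% were lower and 27.3% higher in this way. Cyp7b1, which hydroxylates 25- and 27-hydroxycholesterol on the way to their removal, gave 293.3 and 346.7 in siNEG cells and 144.2 and 132 in siGPR17 cells. Both siGPR17 arrays were far below both siNEG arrays. Its log2 fold change was -1.21 (SE 0.13, 95% interval -1.56 to -0.86, limma adjusted p = 0.21), and 0.532% of tested probes differed by as much. It stayed between -1.33 and -0.81 under all alternatives. Cyp27a1, the mitochondrial enzyme that makes 27-hydroxycholesterol, gave 30.27 and 28.88 in siNEG cells and 23.79 and 14.78 in siGPR17 cells, the last of these not well above background. The groups did not overlap, but the log2 fold change of -0.66 (SE 0.25, 95% interval -1.35 to 0.04, limma adjusted p = 0.313) rested largely on siGPR17 replicate 2. Without that array it was -0.31, without siGPR17 replicate 1 it was -1.0, and under normexp background correction it was -0.10.

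Ch25h, the endoplasmic reticulum enzyme that makes 25-hydroxycholesterol, gave 25.38 and 20.44 in siNEG cells and 29.21 and 26.67 in siGPR17 cells. Both silenced arrays were above both controls, with a log2 fold change of 0.29 (SE 0.14, 95% interval -0.10 to 0.69, limma adjusted p = 0.384), and 26% of tested probes differed by as much. Leaving out siNEG replicate 2 gave 0.14, and leaving out the other siNEG array gave 0.45. Ch25h is an inducible gene of macrophages and endothelial cells as well. The 2 endothelial markers tested of 5, Cdh5 the brighter, were both higher, with a summed signal of 103.2 to 103.8 in siNEG and 125.1 to 147.6 in siGPR17 cells, while the microglial list lay as given for Apoe. Pecam1 and Cldn5 were well above background on no array. Flt1 was not tested either, with 1 of its 2 probes well above background on 1 siNEG array. Its probes had log2 fold changes of -0.34 and -0.15, with groups that overlapped. The tested astrocyte markers went both ways. Aqp4, named after its values were seen, had a log2 fold change of -1.35. It gave 160.8 and 168.9 in siNEG cells against 72.93 and 57.11 in siGPR17 cells. Gfap, named in the same way, had -0.61, Slc1a2 had -0.22 and the brightest marker Aldoc had -0.03. Fgfr3 and Aldh1l1 were higher, at 0.23 and 0.27. By their brightest tested probes all 6 neuronal markers had negative values, Map2 as the brightest a log2 fold change of -0.18. Their summed signal was 6790 to 8096 in siNEG and 6359 to 6622 in siGPR17 cells. Tubb3 and Syt1 overlapped between groups. Syt1 was at -0.006, and its other tested probe went the other way, at 0.26. The 3 fibroblast and mural markers tested of 6, with Col1a2 the brightest, had positive values. Col1a2 and Col1a1 overlapped between groups, and Acta2 did not. None of the markers named here passed the thresholds. The part of other cells in the enzyme values was not tested. In bulk RNA, fewer cells of a type and less RNA per cell cannot be told apart.

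**Figure D3:**
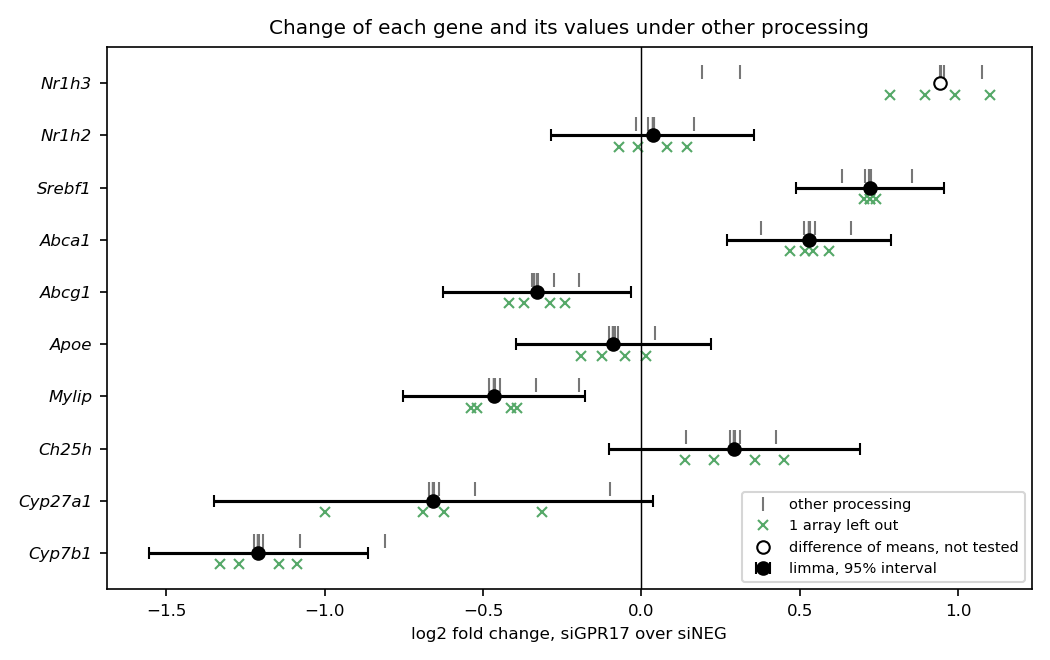
Log2 fold change (siGPR17 over siNEG) of each gene, by its brightest tested probe, with limma's 95% interval; the open point of Nr1h3 is a difference of means without a test. Grey ticks are values under other processing and green crosses those with 1 array left out: Srebf1, Abca1 and Ch25h stay above 0, Abcg1, Mylip, Cyp27a1 and Cyp7b1 stay below 0, and Nr1h2 and Apoe fall on both sides.

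Of the 9 tested members, 4 were higher and 5 lower. The median of their log2 fold changes was -0.09, that of all tested probes 0.01. Their median absolute difference was 0.46, against 0.16 over all tested probes. The members were chosen with earlier results of these data known. This value and the shares that follow are therefore descriptions, and do not test whether the set differs from other genes. At an unadjusted limma p under 0.05, 2 members (Srebf1 and Abca1) were higher and 3 (Abcg1, Mylip and Cyp7b1) lower, beside 7.55% of all tested probes higher and 9.1% lower. Arrays of the groups did not overlap for 3 members that were higher, where 27.3% of tested probes were so placed, and for 4 that were lower, against 25.2%. A difference of 1.5-fold or more in either direction was seen in 3 of the tested members (Srebf1, Cyp27a1 and Cyp7b1), and in 6.64% of tested probes. Other processing choices did bring members past both thresholds. With limma's trend and robust options Srebf1 and Cyp7b1 passed (adjusted p = 0.0172 for each), as did 1.5% of tested probes, and with normexp background correction Srebf1 (adjusted p = 0.0201) and Cyp7b1 (adjusted p = 0.0273) passed, as did 0.853% of tested probes.

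**Figure D4:**
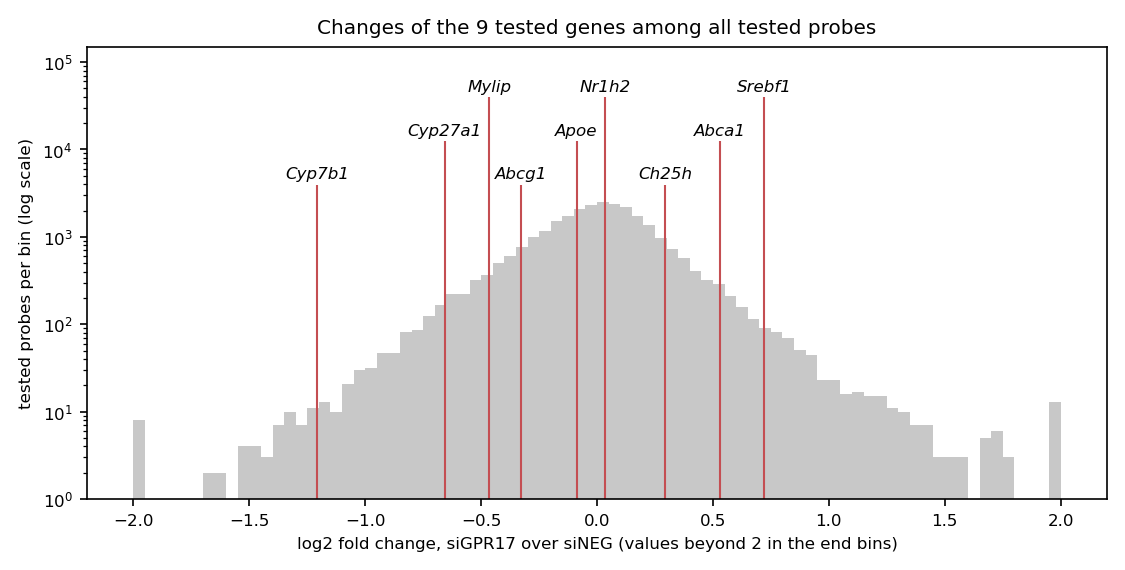
Number of tested probes (log axis) by log2 fold change, siGPR17 over siNEG, in grey bars, with a red line at the value of each of the 9 tested members (line heights only separate the names). Cyp7b1 at -1.21 and Srebf1 at 0.72 lie farthest from 0, while Nr1h2 and Apoe lie in the middle of all probes.

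Other genes of LXR and oxysterol biology were read from a list of 50, of which 46 had a probe and 38 a tested one. None of the 38 passed the thresholds, 21 were higher and 17 lower, and their median log2 fold change was 0.01. At an unadjusted limma p under 0.05, 3 of the 38 were higher and 3 lower, close to the 7.55% and 9.1% of all tested probes. A difference of 1.5-fold or more was seen in 2, beside 6.64% of all tested probes. Arrays of the groups did not overlap for 6 that were higher and 9 that were lower, beside 27.3% and 25.2% of all tested probes. Among receptor partners and coregulators, the retinoid X receptor Rxra had the highest value, with 40.63 and 32 in siNEG cells and 48.72 and 52.96 in siGPR17 cells (log2 fold change 0.49, limma adjusted p = 0.263). The corepressor Ncor1 had the lowest, at -0.08. Of the other retinoid X receptors, Rxrb had 0.01 by its brighter probe and 0.03 by its other. Rxrg, well above background on 1 array, was not tested. Among further LXR targets, where 7 of 12 were higher, the values ran from -0.60 for the sterol transporter Abcg5, well above background on 1 array of each group, to 0.29 for its partner Abcg8, and both overlapped between groups.

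Among other oxysterol and side chain enzymes, the lowest value was that of the bile acid pathway reductase Akr1d1, at -0.55 (limma adjusted p = 0.293), with 42.19 and 48.69 in siNEG cells and 26.44 and 36.39 in siGPR17 cells. The other probes of Akr1d1 were well above background on no array and were not tested. For sensing and transport, the lysosomal cholesterol carrier Npc2 gave 1077 and 1046 in siNEG cells and 1488 and 1462 in siGPR17 cells, a log2 fold change of 0.47 (SE 0.086, limma adjusted p = 0.21). The oxysterol-binding protein family member Osbpl2 gave 1445 and 1555 against 1007 and 975.5, a log2 fold change of -0.60 (SE 0.093, limma adjusted p = 0.21). Osbpl2 was the 1 gene of this list past both thresholds with the trend and robust options, and none passed with normexp. Vldlr, a lipoprotein receptor that Mylip targets, had a log2 fold change of -0.16 by its brighter probe (limma adjusted p = 0.491). Its other tested probe gave -0.35 (limma adjusted p = 0.329).

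**Figure D5:**
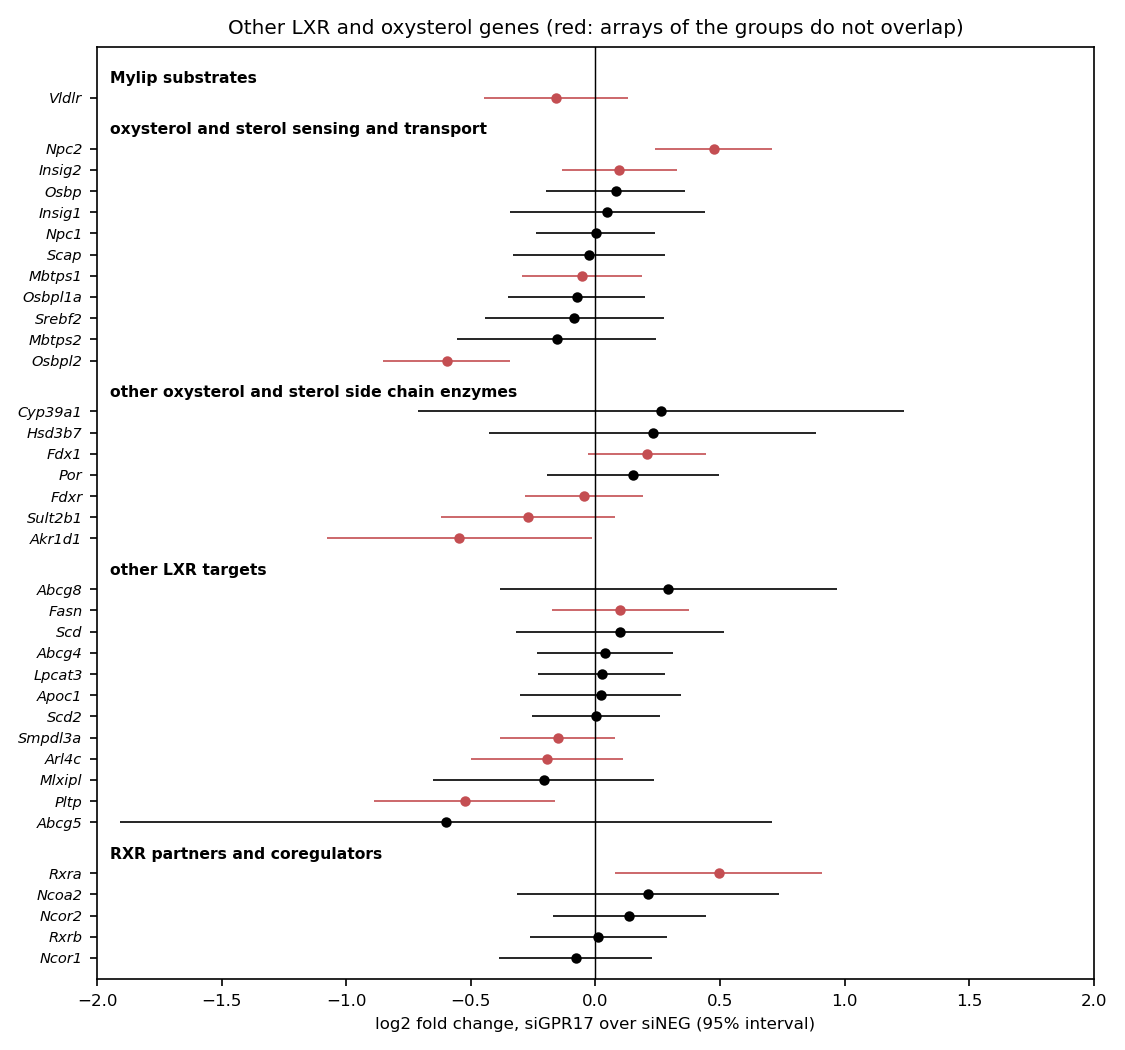
Log2 fold change (siGPR17 over siNEG, points) with limma's 95% interval (lines) for 36 tested genes of the wider LXR and oxysterol list, in 5 groups. Red marks the 5 higher and 9 lower genes among those drawn whose arrays do not overlap between groups, a placement found in 27.3% (higher) and 25.2% (lower) of all tested probes; Npc2 at 0.47 and Osbpl2 at -0.60 have the narrowest intervals among the genes farthest from 0.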

How the data were processed

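RNA of 2 siNEG and 2 siGPR17 samples was labelled with Cy3 from 100 ng and hybridised to SurePrint G3 rat arrays. The deposited intensities are spot signals that the authors obtained with Agilent Feature Extraction 10.7.3.1 (per the file headers and the labels), which subtracted background and detrended each array without normalizing between arrays. The array files name an older rat build, so no probe coordinates are given, and probes were named through RefSeq accessions (21093 of 45565 probes matched a symbol).

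From these, control spots and spots flagged as outliers were left out, log2 signals of repeated spots were averaged, and each array's 75th percentile over probes was subtracted. A probe was tested when well above background on at least 2 of 4 arrays (28017 probes), with limma 3.58.1 in R 4.3.3 (lmFit and eBayes, no block, Benjamini-Hochberg adjustment over all tested probes). The fold threshold of 1.5 and the adjusted p under 0.07 follow the study's methods. For comparing 2 groups in general these methods give Student's unpaired test (two-sided), without mention of the arrays, and it was run here as an alternative. Genes are represented by their brightest tested probe. Calculations were tested on simulated data. The number of arrays limits the precision.

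The members and lists were chosen with earlier results of these data known. All members and Gpr17 are named, with the highest and the lowest gene of each pathway group (2 of these are not reported here) and the brightest gene of a marker list. Alternatives covered background correction (normexp, offset 50, on median signals because the files used hold no mean), scaling, dim probes, the spread model, the t-test of the study's methods, a replicate block, probe averaging and each array left out. A 75th percentile over spots, which weights repeated probes, was the first version run, and was exchanged for the percentile over probes after results of both had been seen. It is given among the alternatives. Deviations of same-numbered arrays from their group means correlated at -0.07. With 2 arrays per group, this value cannot decide whether the replicate numbers pair the samples. Promoter windows were searched on both strands. Nothing in the sources says that the 2 samples of a group came from separate animals, so p-values measure the spread between these samples.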

Additional observations from a re-analysis of the deposited data

Results flagged for a closer look

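Nr1h3 (LXRα) fell outside the tests because its probe was well above background on 1 of the 4 arrays, siGPR17 replicate 2. Its measured ratio of siGPR17 over siNEG was 1.92, or 0.94 on the log2 scale, and both siGPR17 signals were above both siNEG signals. The log2 value was 0.19 with normexp background correction and 0.31 when dim values were set to a common floor. When dim probes were not filtered out, its limma adjusted p was 0.399. The lowest signal that counted as well above background was between 7.376 and 13.44 across arrays, close to the signals of this probe.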

How the results depend on the processing

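Each group held 2 arrays. The dim probes of Nr1h3 and Cyp27a1 moved from 0.94 to 0.19 and from -0.66 to -0.10 with normexp. Srebf1, Abca1, Abcg1, Mylip, Ch25h, Cyp27a1 and Cyp7b1 kept their direction under all alternatives run. The count of probes past the thresholds, 1 as reported, was 239 with normexp and 420 with trend and robust options, and 0 with spike-in scaling, with no filter on dim probes, with detection on all 4 arrays, with a floor, with the methods' t-test, with the replicate block and with each array left out. It was also 0 with the 75th percentile over spots, an alternative chosen after seeing the data. Probes with an unadjusted p under 0.05 numbered 4666 as reported, 3358 with the replicate block, 3639 with the methods' t-test, 6824 and 5072 without siNEG replicate 1 and 2, and 2036 and 2185 without siGPR17 replicate 1 and 2. Members past the thresholds numbered 0 as reported, 2 with normexp and 2 with trend and robust options, and pathway genes 0 as reported and 1 with trend and robust options. Gpr17 passed with normexp (-0.66, adjusted p = 0.0235) and with trend and robust options (-0.78, adjusted p = 0.0147). The median of the tested members, -0.09 as reported, was 0.043 with spike-in scaling, -0.027 with detection on all 4 arrays, where 8 members remained, and -0.19 to 0.013 with 1 array left out. Spike-in scaling moved the median of all tested probes to 0.14, so its values lie about that much higher. Apoe turned to 0.043 with spike-in scaling and to 0.013 without siNEG replicate 2. Nr1h2 turned to -0.016 with normexp, and among the values with 1 array left out, which ran from -0.072 to 0.14, to -0.072 without siNEG replicate 1 and -0.011 without siGPR17 replicate 2. The causes were not tested.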
